A study of Mus musculus with 10 samples.

Results

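The genes described here, read in the distal small intestine (ileum), encode proteins for conjugation, ester hydrolysis or efflux of drugs, steroids and other small molecules. They were chosen by symbol from the deposited table of probes: every symbol that begins with Ugt1, Ugt2, Ugt3, Sult or Papss, every symbol that begins with Ces and a digit, and Nat1, Nat2, Ugdh, Abcb1a, Abcb1b and Abcg2. The rule gave 37 of 18138 symbols, with 48 of 25697 probes, and used no measured value. They are 15 UDP-glycosyltransferases (Ugt1, Ugt2 and Ugt3 genes), 10 sulfotransferases, 4 carboxylesterases, 3 efflux pumps, 2 arylamine N-acetyltransferases, 2 PAPS synthases and UDP-glucose dehydrogenase. RNA was measured on Illumina arrays from the ileum of 5 mice with the genotype label iPGC-1β, and from 5 wild-type mice described by the series as littermates. Mice of both groups were FVB/N and 3 to 4 months old. PGC-1β is a coactivator of transcription encoded by Ppargc1b. In this field iPGC-1β names mice that overexpress PGC-1β in the intestinal epithelium, which the labels do not spell out; the promoter of the transgene, the number of lines, the sex and the litters are not stated in the sources used here. The comparison asks how these genes differ between arrays labelled iPGC-1β and wild-type arrays.

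Enterocytes, the absorptive cells of the villus, meet drugs and dietary compounds before the liver does. Sulfotransferases add sulfate from the donor PAPS, which the PAPS synthases make from ATP and inorganic sulfate. UDP-glucuronosyltransferases, here the products of the Ugt1 and Ugt2 genes, add glucuronic acid from UDP-glucuronic acid, which UDP-glucose dehydrogenase makes. Carboxylesterases cleave ester and amide bonds of drugs and of lipids. The product of Abcg2 pumps sulfate and glucuronide conjugates from the enterocyte into the gut lumen, and the products of Abcb1a and Abcb1b, the P-glycoproteins, pump out unconjugated hydrophobic drugs.

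The probe for Ppargc1b read lower on the iPGC-1β arrays than on wild-type arrays, against what an overexpressing line would give if the probe read the transgene, with a log2 intensity of 7.70 ± 0.41 there and 8.32 ± 0.22 on wild-type arrays (SD, n = 5 each; limma adjusted p = 0.0452). The sources used here do not give the position of that probe, so whether it reads the transgene is unknown, and it does not check the labels. Every direction below therefore rests on the arrays as labelled. Between 12370 and 12771 probes were above background on each array. Fabp6, the ileal bile acid binding protein gene, is given here for its level as a defining marker of ileum and averaged 14.64 ± 0.12 on iPGC-1β arrays and 14.55 ± 0.16 on wild-type arrays. Of 7 tested markers of distal small intestine 3 were lower and 0 higher at a limma adjusted p under 0.05. Over all tested genes 7.41% were lower and 9.88% higher. Fgf15, an ileal hormone, differed by -1.79 (adjusted p = 0.00587). The brush border protease gene Mep1b, which also counts among the enterocyte markers below, differed by -0.79 (7.2e-04). Ostb, a bile acid exporter subunit gene, differed by -0.81 (0.0348) and was called in 12 of 22 alternative fits. Fgf15 read -0.87 without background correction (adjusted p = 0.00704) and was not called with the enterocyte covariate described below, at -1.44 (adjusted p = 0.123).

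Of the 37 genes, 20 were above background (detection p under 0.05) on at least 5 of the 10 arrays and were tested. On the arrays labelled iPGC-1β 6 of these 20 were lower (30%) and 0 were higher, at an adjusted p under 0.05 by limma, adjusted by Benjamini-Hochberg over the 9365 genes tested. Over all tested genes 7.41% were lower and 9.88% higher, 17.3% in all. At an unadjusted p under 0.05, 9 of the 20 were lower and 0 higher, against 16% and 15.2% of all tested genes. The 6 genes were both PAPS synthases (Papss1 and Papss2), the cholesterol sulfotransferase Sult2b1, the UDP-glucuronosyltransferase Ugt2b34, the carboxylesterase Ces5 and the efflux pump Abcg2. All 6 were above background on all 10 arrays, and their levels were between 1.43-fold and 2.21-fold lower on iPGC-1β arrays. Of the 20 tested genes 18 had a negative log2 difference, with a median of -0.40; over all tested genes 5223 differences were negative and 4142 positive, with a median of -0.05. The groups did not overlap for 4 of the 20, all lower in iPGC-1β, against 5.62% of all tested genes that were lower without overlap and 8.66% that were higher, 14.3% in all. These shares were not tested against each other.

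**Figure D1:**
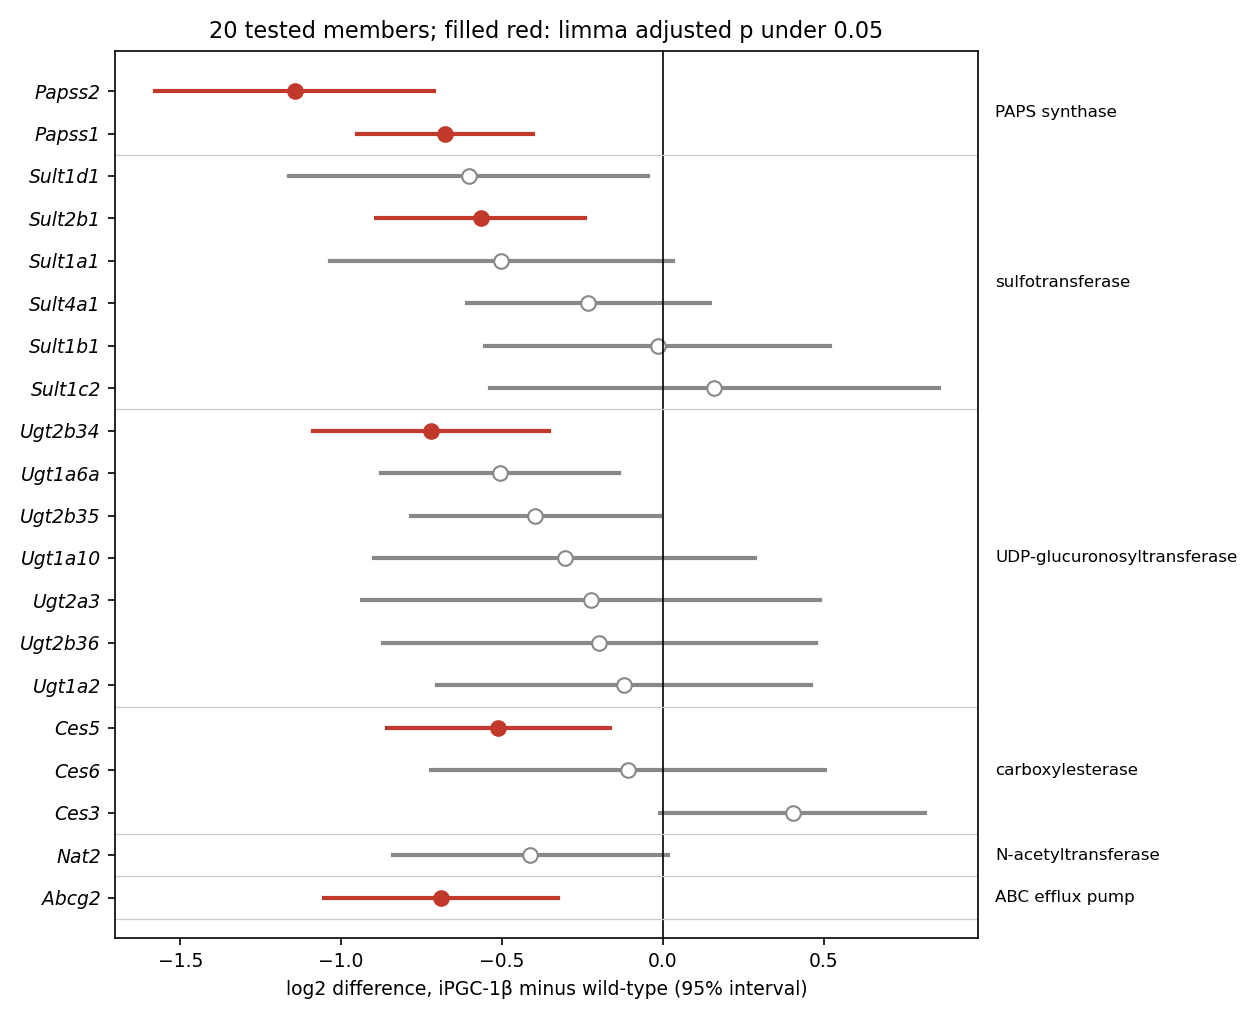
Log2 difference, iPGC-1β minus wild-type, of the 20 tested genes grouped by role, with 95% confidence intervals from limma (n = 5 arrays per group). Filled red points mark the 6 genes with an adjusted p under 0.05; all lie left of 0, between -0.51 and -1.14, and the 2 positive points are Sult1c2 and Ces3.

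Both PAPS synthases, the enzymes of sulfate activation, were lower on iPGC-1β arrays. Papss2, whose loss is known to disturb cartilage growth in mice, had log2 intensities of 5.49, 5.86, 6.24, 6.33 and 6.74 on iPGC-1β arrays 1 to 5, against 7.20, 7.18, 7.45, 7.30 and 7.24 on wild-type arrays 1 to 5. Every iPGC-1β array lay below every wild-type array, and the iPGC-1β arrays were spread much more widely. The means were 6.13 ± 0.48 on iPGC-1β arrays and 7.27 ± 0.11 on wild-type arrays (SD), and the log2 difference was -1.14 ± 0.20 (SE), a 2.21-fold lower level (limma adjusted p = 0.00187; exact permutation p, two-sided, = 0.00794, the lowest value that 252 relabelings can give). Without background correction the log2 difference of Papss2 was -0.55 (limma adjusted p = 0.00123). Its detection p on iPGC-1β array 1, the dimmest, was 0.016.

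Papss1, the other PAPS synthase, had log2 intensities of 11.23, 10.93, 11.10, 10.94 and 11.34 on iPGC-1β arrays, against 11.78, 11.87, 11.87, 11.79 and 11.60 on wild-type arrays. Every iPGC-1β array lay below every wild-type array, and the spread was narrow in both groups. Averages were 11.11 ± 0.18 on iPGC-1β arrays and 11.78 ± 0.11 on wild-type arrays, differing by -0.68 ± 0.13 on the log2 scale (SE; limma adjusted p = 0.00281, exact permutation p = 0.00794). A second probe for Papss1 was separate between the groups as well, with a log2 difference of -0.83 (adjusted p = 0.00249 over all kept probes).

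The promoter windows of Papss1 and Papss2 are shown because both genes were called lower, and beside them those of the 2 called genes with a single listed start. Windows run from 250 bases before to 50 bases after a transcription start (RefSeq, GRCm38.p6), 5′ to 3′ on the gene's strand. All 6 called genes matched the table, with 11 windows in all; the windows of Papss1 and Papss2 are those of the first of 2 listed starts, and Ugt2b34 and Ces2e, the current symbol of Ces5, have 1 start each. Capitals mark matches on either strand to the searched letters CAAAGT (the HNF4 core), AGGTCA (a nuclear receptor half-site), TCAAGGTCA (the ERR response element, which contains the half-site), GCGTG (the xenobiotic response element core) and TGACNNNGC (the antioxidant response element core).
Papss1 chr3:131564518-131564817 (plus strand): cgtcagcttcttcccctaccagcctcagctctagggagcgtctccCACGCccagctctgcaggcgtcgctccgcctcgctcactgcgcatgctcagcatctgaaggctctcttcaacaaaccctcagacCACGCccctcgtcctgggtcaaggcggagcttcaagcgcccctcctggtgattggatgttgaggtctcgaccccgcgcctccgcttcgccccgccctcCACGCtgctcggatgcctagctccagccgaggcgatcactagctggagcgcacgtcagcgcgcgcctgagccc
Papss2 chr19:32595465-32595764 (plus strand): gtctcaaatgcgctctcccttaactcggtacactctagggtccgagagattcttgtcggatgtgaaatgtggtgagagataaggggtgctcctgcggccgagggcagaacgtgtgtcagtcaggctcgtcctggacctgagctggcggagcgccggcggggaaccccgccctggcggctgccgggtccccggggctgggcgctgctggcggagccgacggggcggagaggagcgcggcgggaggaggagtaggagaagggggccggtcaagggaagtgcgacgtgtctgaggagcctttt
Ugt2b34 chr5:86906888-86907187 (minus strand): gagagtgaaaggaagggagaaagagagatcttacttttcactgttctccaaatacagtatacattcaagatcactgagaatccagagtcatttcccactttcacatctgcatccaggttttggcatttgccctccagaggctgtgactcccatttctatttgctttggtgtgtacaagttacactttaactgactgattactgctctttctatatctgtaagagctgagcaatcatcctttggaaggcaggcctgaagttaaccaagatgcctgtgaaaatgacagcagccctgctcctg
Ces2e chr8:104926010-104926309 (plus strand): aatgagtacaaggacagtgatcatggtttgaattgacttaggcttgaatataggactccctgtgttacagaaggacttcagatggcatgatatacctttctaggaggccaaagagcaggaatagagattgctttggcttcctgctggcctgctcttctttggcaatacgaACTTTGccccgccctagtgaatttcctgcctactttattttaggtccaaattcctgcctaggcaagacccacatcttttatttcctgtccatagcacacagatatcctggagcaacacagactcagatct

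The Papss1 and Papss2 windows each held 66.3% G and C bases and 27 CpG dinucleotides, against medians of 52.7% and 7 over the 32851 promoter windows in the table. The Ugt2b34 window held 43.3% G and C and 0 CpG, and the Ces2e window 44.7% and 2. Composition also differed between starts of 1 gene: the windows of the second starts of Papss1 and Papss2 held 47.3% and 44.3%, the 3 Abcg2 windows between 48.0% and 67.0%, and the Sult2b1 windows 66.7% and 53.3%. Papss1 held 3 matches to GCGTG, read as CACGC on the printed strand, a motif found in 32.4% of all windows. Ces2e held 1 match to CAAAGT, read as ACTTTG here, a motif found in 14.4% of all windows. The printed Papss2 and Ugt2b34 windows held 0 matches to the searched letters. Among the windows not printed, the second Papss1 window held 1 match to GCGTG and the second Papss2 window 1 to AGGTCA. The Abcg2 windows, in the order of their starts, held 2, 0 and 1 matches to AGGTCA and 0, 0 and 1 to GCGTG. Each of the 2 Sult2b1 windows held 1 match to CAAAGT and 1 to GCGTG. Of all windows 16.3% held AGGTCA, 0.423% held TCAAGGTCA and 12.4% held TGACNNNGC. A match is only a run of letters, and no binding was measured.

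**Figure D2:**
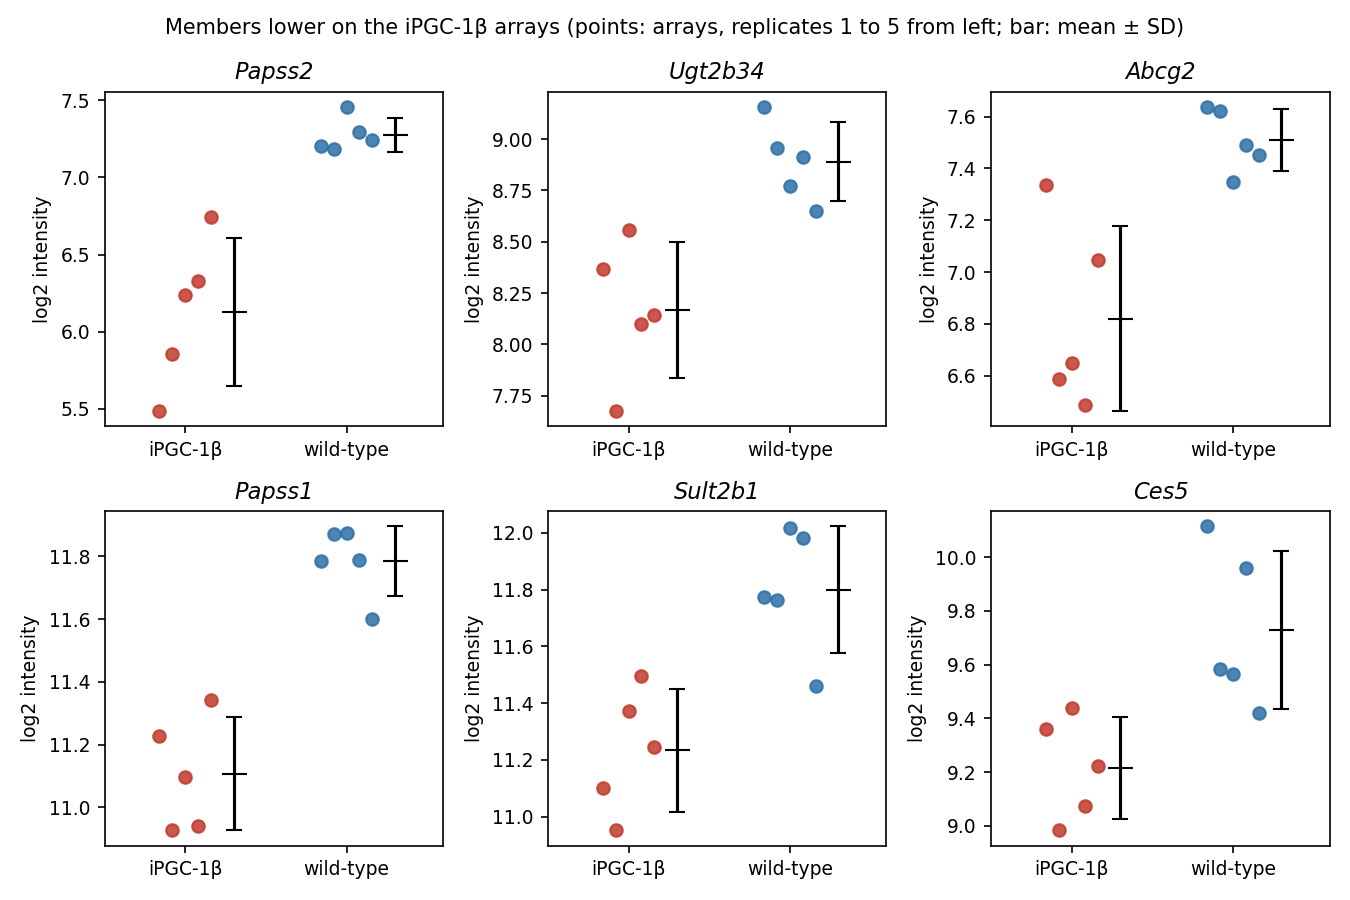
Log2 intensity of the 6 genes called lower, one point per array in replicate order from left, with the mean ± SD of 5 arrays per group beside the points. Each panel has its own axis that does not start at 0; the iPGC-1β arrays lie below every wild-type array for Papss2, Ugt2b34, Abcg2 and Papss1, and overlap them for Sult2b1 and Ces5.

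Among the sulfotransferases 1 of 6 tested genes was lower and 0 higher, beside 7.41% lower and 9.88% higher over all tested genes. The median log2 difference of the 6 was -0.37. Sult2b1, which sulfates cholesterol and other 3β-hydroxysteroids, had log2 intensities of 11.10, 10.95, 11.37, 11.50 and 11.24 on iPGC-1β arrays, against 11.77, 11.76, 12.02, 11.98 and 11.46 on wild-type arrays. Wild-type array 5 alone lay among the iPGC-1β arrays, just under iPGC-1β array 4. Group means stood at 11.23 ± 0.22 on iPGC-1β arrays and 11.80 ± 0.22 on wild-type arrays, differing by -0.57 ± 0.15 on the log2 scale (SE; limma adjusted p = 0.0205, exact permutation p = 0.0159). Its other 2 kept probes had log2 differences of -0.48 and -0.44, with adjusted p-values of 0.0417 and 0.314 over all kept probes. The call was lost without wild-type array 3 or without wild-type array 4 (limma adjusted p up to 0.0549), with the mean of the 3 probes, and with the enterocyte covariate described below, where the difference was -0.14 (adjusted p = 0.636).

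The other 5 tested sulfotransferases did not pass the threshold. Sult1d1, known in the mouse for sulfating catecholamines, averaged 9.94 ± 0.52 on iPGC-1β arrays and 10.54 ± 0.43 on wild-type arrays, a log2 difference of -0.60 (95% interval -1.16 to -0.05; limma adjusted p = 0.130). Its iPGC-1β array 1 stood at 10.83 and the other 4 between 9.51 and 9.85; without that array the gene was called lower (adjusted p = 0.0191). A second Sult1d1 probe gave -0.09. Sult1a1, which sulfates simple phenols, averaged 7.45 ± 0.23 on iPGC-1β arrays and 7.95 ± 0.59 on wild-type arrays, a log2 difference of -0.50 (adjusted p = 0.187). Wild-type array 5 read 6.90, below every iPGC-1β array, while wild-type arrays 1 to 4 read 8.09 to 8.34, above every iPGC-1β array; without array 5 the gene was called lower (adjusted p = 0.00344). Sult4a1, a brain-enriched member of the family, differed by -0.23 (interval -0.61 to 0.15). Sult1b1, which sulfates thyroid hormones, differed by -0.02 (interval -0.55 to 0.52). Near background, and above it on 3 arrays of each group, Sult1c2 differed by 0.16 (interval -0.54 to 0.86). Intervals of this width include changes of the size called in other genes.

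**Figure D3:**
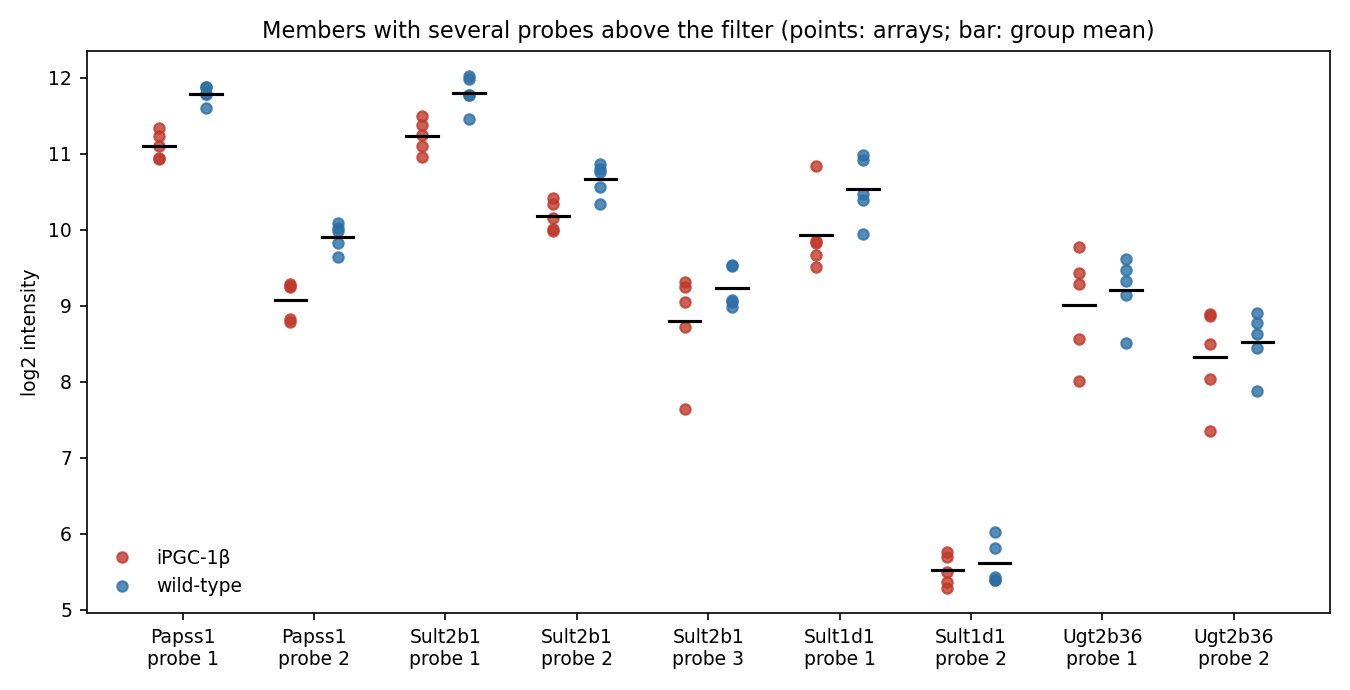
Log2 intensity of each kept probe of the 4 genes with several (points: arrays; bars: means of 5 arrays per group; the axis starts at 5, and levels of different probes are not comparable). Both Papss1 probes part the groups, the 3 Sult2b1 probes shift by -0.44 to -0.57, and the Sult1d1 probes disagree in size at -0.60 and -0.09.

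Among the UDP-glucuronosyltransferases 1 of 7 tested genes was lower and 0 higher, beside 7.41% lower and 9.88% higher over all tested genes. All 7 differences were negative, with a median of -0.31. Ugt2b34, a member of the 2B group that conjugates steroids and drugs, had log2 intensities of 8.37, 7.67, 8.56, 8.10 and 8.14 on iPGC-1β arrays, against 9.16, 8.96, 8.77, 8.91 and 8.65 on wild-type arrays. The groups did not overlap, with iPGC-1β array 3 and wild-type array 5 closest to each other. The means were 8.17 ± 0.33 on iPGC-1β arrays and 8.89 ± 0.19 on wild-type arrays, differing by -0.72 ± 0.17 on the log2 scale (SE; limma adjusted p = 0.0110, exact permutation p = 0.00794).

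Ugt1a6a, which conjugates phenols, came next in the family without passing the threshold. Its means were 7.52 ± 0.26 on iPGC-1β arrays and 8.03 ± 0.29 on wild-type arrays, a log2 difference of -0.51 (interval -0.88 to -0.14; limma adjusted p = 0.0590). It was called in 6 of 22 alternatives, among them the authors' processed values and the fit without wild-type array 5. Ugt2b35 differed by -0.40 (adjusted p = 0.150). The other 4, Ugt1a10, Ugt2a3, Ugt2b36 and Ugt1a2, differed by -0.31, -0.22, -0.20 and -0.12, each with an interval that includes 0. Of these Ugt2a3 was near background, above it on 2 iPGC-1β and 3 wild-type arrays. Both Ugt2b36 probes gave -0.20. Ugt1a genes share their last exons and Ugt2b genes are close paralogs; with no probe positions in the sources used here, a probe may read more than 1 of them.

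Neighbours on a chromosome are given by the range of their differences, which were not tested against each other. In the gene order of GRCm38.p6, 13 of the 37 genes lie in 1 run on chromosome 5 with at most 5 other genes between neighbours: 10 Ugt2 genes followed by Sult1b1, Sult1d1 and Sult1e1. Of the 6 tested there, 1 was lower (Ugt2b34, at one end of the run), and their log2 differences spread between -0.72 and -0.02. The 3 Ugt1a genes on chromosome 1 spread between -0.51 and -0.12.

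Among the carboxylesterases 1 of 3 tested genes was lower and 0 higher, beside 7.41% lower and 9.88% higher over all tested genes. Ces5, now named Ces2e and one of the Ces2 group known in intestine and liver, had log2 intensities of 9.36, 8.98, 9.44, 9.07 and 9.22 on iPGC-1β arrays, against 10.11, 9.58, 9.57, 9.96 and 9.42 on wild-type arrays. Wild-type array 5 lay just below iPGC-1β array 3, and the other arrays were parted by group. Averages were 9.22 ± 0.19 on iPGC-1β arrays and 9.73 ± 0.29 on wild-type arrays, differing by -0.51 ± 0.16 on the log2 scale (SE; limma adjusted p = 0.0441, exact permutation p = 0.0159). This call was held in 12 of 22 alternatives and lost when any 1 of iPGC-1β arrays 2, 4 and 5 or wild-type arrays 1 to 4 was left out (adjusted p up to 0.109).

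Ces6, now Ces2a, was near background, with a log2 difference of -0.11 (interval -0.72 to 0.50). The symbol Ces3 can stand for Ces1d or Ces3a and is kept as the file gives it. Its log2 intensities were 8.94, 9.60, 9.87, 8.92 and 9.66 on iPGC-1β arrays, against 8.99, 8.83, 8.92, 9.02 and 9.20 on wild-type arrays. It showed the only positive difference of appreciable size among the tested genes, 0.40 (interval -0.01 to 0.82; limma adjusted p = 0.170), with iPGC-1β arrays 1 and 4 inside the wild-type range and arrays 2, 3 and 5 above it. Nat2, which acetylates aromatic amines, differed by -0.41 (interval -0.84 to 0.02; adjusted p = 0.176).

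Abcg2 was the only efflux pump of the 3 that could be tested. It had log2 intensities of 7.33, 6.59, 6.65, 6.49 and 7.05 on iPGC-1β arrays, against 7.64, 7.62, 7.35, 7.49 and 7.45 on wild-type arrays. The groups did not overlap, but iPGC-1β array 1 lay just under wild-type array 3. Group means stood at 6.82 ± 0.36 on iPGC-1β arrays and 7.51 ± 0.12 on wild-type arrays, differing by -0.69 ± 0.17 on the log2 scale (SE; limma adjusted p = 0.0132, exact permutation p = 0.00794). Without background correction the difference was -0.39 (adjusted p = 0.0117).

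The other 17 genes were above background on fewer than 5 arrays. Of these 13 were above it on 0 arrays: Abcb1a, Nat1, Sult1c1, Sult1e1, Sult3a1, Sult5a1, Ugdh, Ugt2a1, Ugt2b37, Ugt2b38, Ugt2b5, Ugt3a1 and Ugt3a2. Ces1 (now Ces1g), Ugt2a2 and Ugt2b1 were above it on 1 array each. Abcb1b was above it on 3 iPGC-1β arrays and 0 wild-type arrays, with means of 5.22 ± 0.35 on iPGC-1β arrays and 4.73 ± 0.24 on wild-type arrays. The groups overlapped, as iPGC-1β arrays 2 and 4 read 4.96 and 4.83, below wild-type array 3 at 5.06. Set against the wild-type background floor, the iPGC-1β mean stood 1.10-fold higher. That mean includes iPGC-1β arrays 2 and 4, which were not above background (detection p of 0.071 and 0.150). The fold is therefore not a lower bound, and it takes no account of the spread. In the fit without a filter the limma adjusted p of Abcb1b was 0.117. Levels of genes not well above background cannot be read from these probes, so no level is given for Ugdh, the source of UDP-glucuronic acid.

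Genes that supply or surround these reactions were read from lists chosen with earlier results of these data known, and not by their change. Over all tested genes 7.41% were lower and 9.88% higher, and no count of a list was tested against these shares. Of 9 tested genes of PAPS and UDP-sugar supply and transport 2 were lower and 0 higher, with a median log2 difference of -0.18. Slc26a2, a sulfate transporter, differed by -0.79 (limma adjusted p = 0.0351; -0.25 and not called without background correction, where adjusted p = 0.0634). Slc35a3, a transporter of UDP-N-acetylglucosamine into the Golgi, differed by -0.58 (adjusted p = 0.0109). Ugp2, which makes UDP-glucose, did not pass the threshold at -0.37. Of 6 tested hydrolases of sulfated or uronic acid conjugates and glycosaminoglycans 0 were called (0 by limma in either direction; 1 higher and 1 lower at an unadjusted p under 0.05), with a median log2 difference of 0.10. The sulfatase gene Arsa stood at 0.46 (adjusted p = 0.103) and the glucuronidase gene Gusb at -0.56 (adjusted p = 0.130). With the mean of the enterocyte markers described below as a covariate, Arsa was called higher at 1.03 (adjusted p = 0.00629) and Gusb lower at -1.26 (adjusted p = 0.0121).

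Other drug-handling genes included some that were higher, beside 9.88% higher and 7.41% lower over all tested genes. Of 11 other esterases and lipid hydrolases 1 was higher: Aadacl1, now Nceh1, a neutral cholesterol ester hydrolase, at 1.32 (limma adjusted p = 6.5e-04). Of 7 other conjugating transferases 1 was higher: As3mt, an arsenic methyltransferase, at 0.89 (adjusted p = 0.0262). Of 16 other drug transporters 4 were higher and 2 lower; the organic anion transporter Slco4a1 differed by 1.38 (adjusted p = 2.2e-04), the drug and cation exporter Slc47a1 by 1.25 (0.0276), Abcc10 by 0.61 (0.0101) and the prostaglandin transporter Slco2a1 by -0.82 (0.00716). Of 20 nuclear receptors, xenobiotic sensors and partners 2 were higher and 3 lower. Rxrb rose by 0.83 (adjusted p = 0.00159) and Esrra, the estrogen-related receptor alpha with which PGC-1 coactivators are known to work, by 0.41 (0.0267; 0.32 and not called under median centring). The bile acid receptor gene Nr1h4 differed by -0.64 (0.0218) and the corepressor gene Ncor1 by -0.50 (0.0314). Named after their values were seen, the third lower gene was Hnf4a (-0.42, adjusted p = 0.0373), a regulator of enterocyte genes, and the pregnane X receptor gene Nr1i2 was not called (0.14, adjusted p = 0.486).

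Calls of single genes in these lists differed in how they held. Slco4a1, Abcc10, Aadacl1 and Rxrb were called in 22 of 22 alternatives, and Slc35a3 and Slco2a1 in 21 of 22, each lost only with the enterocyte covariate, where Slc35a3 read -0.28. Abcc10 read 0.40 without background correction. Slc47a1 was called in 15 of 21 and lost without any 1 of iPGC-1β arrays 1, 3 and 4 or wild-type array 1; it read 0.62 without background correction and 2.47 with the enterocyte covariate. As3mt was called in 16 of 22 and lost without any 1 of iPGC-1β arrays 3, 4 and 5 or wild-type arrays 2 and 3; with the covariate it read 1.43. Ncor1 was called in 13 of 22. It was lost with the enterocyte covariate and without any 1 of iPGC-1β arrays 1, 3, 4 and 5 or wild-type arrays 1 to 4. Hnf4a was called in 13 of 22, Esrra in 14 of 22, Nr1h4 in 18 of 22 and Slc26a2 in 10 of 21. Each was lost with the enterocyte covariate and without some single arrays.

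**Figure D4:**
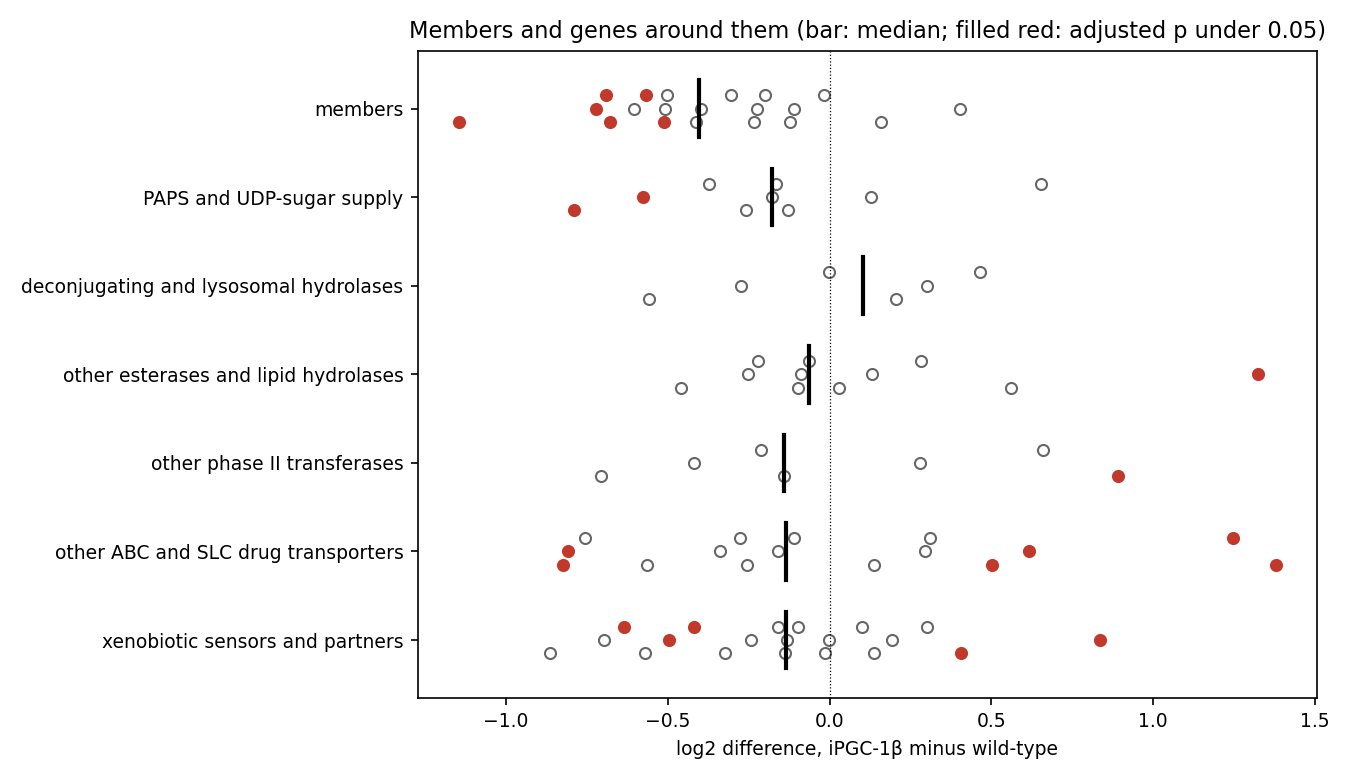
Log2 difference, iPGC-1β minus wild-type, of each tested gene among the conjugation, carboxylesterase and efflux genes (top row) and 6 lists of genes around them; bars are medians and filled red points have an adjusted p under 0.05. The top row has a median of -0.40 and 0 genes called higher, and the transporter row holds 4 genes called higher and 2 called lower.

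Markers of enterocytes moved in the same direction. The marker counts here stand beside 7.41% lower and 9.88% higher over all tested genes, and were not tested against these shares. Of 16 tested enterocyte markers, of 19 on the array, 6 were lower and 0 higher, with a median log2 difference of -0.60. Mep1b, Slc7a9, Slc15a1 and Anpep stood at -0.79, -0.75, -0.95 and -0.80. Of these Slc15a1 was near background, above it on 2 of 5 iPGC-1β arrays, and read -0.30 without background correction (limma adjusted p = 0.0153). The mean of the 16 markers was 10.73, 10.56, 11.21, 11.15 and 10.91 on iPGC-1β arrays, against 11.51, 11.65, 11.77, 11.55 and 11.04 on wild-type arrays (exact permutation p = 0.0238). Wild-type array 5 lay among the iPGC-1β arrays. That array was the lowest of the wild-type arrays for 13 of the 20 tested genes (65%), against 30.6% of all tested genes. iPGC-1β array 2, with the lowest marker mean, was the lowest iPGC-1β array for 8 of the 20 (40%), against 18.1% of all tested genes. But iPGC-1β array 1, with the next lowest marker mean, was the lowest for 3 of the 20 (15%), against 26.2% of all tested genes. It was the highest iPGC-1β array for 5 of the 20 (25%), against 22.3%. The array with the highest marker mean of its group was iPGC-1β array 3 and wild-type array 3. Of the 20 genes, 7 (35%) were highest on that iPGC-1β array, against 22.7% of all tested genes. For 8 (40%) that wild-type array was the highest of its group, against 19.8%. Whether the genes follow the marker mean across arrays was not tested. In whole tissue, fewer enterocytes and less RNA of these genes per enterocyte cannot be told apart. Villus tip markers were lower for 3 of 9, goblet markers for 1 of 6 and enteroendocrine markers for 2 of 10, and smooth muscle, fibroblast, T cell, myeloid, Paneth and hepatocyte markers were called for 0 of 8, 7, 4, 7, 9 and 3. The 4 T cell markers were all negative, with a median of -0.68 and adjusted p-values of 0.208 or more. Proximal small intestine markers were lower for 1 of 6 and crypt markers for 1 of 10 (Axin2 at -0.71, adjusted p = 0.0242). Endothelial markers were higher for 1 of 5 (Emcn at 0.58, adjusted p = 0.0266), and tuft, B and plasma cell and pancreatic acinar markers were called for 0 of 2, 3 and 1. Among hepatocyte markers Cyp2e1 differed most by p, at -1.51 (adjusted p = 0.157).

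With the marker mean of each array as a covariate, 0 of the 20 genes were called by limma in either direction; 3 were lower and 1 higher at an unadjusted p under 0.05. Of all tested genes 6.36% were then lower and 7.74% higher, and 15.7% and 14.3% at an unadjusted p under 0.05. The 6 genes kept negative differences: Abcg2 -0.83 (adjusted p = 0.0523), Papss2 -0.82 (0.0838), Papss1 -0.56 (0.0703), Ugt2b34 -0.40 (0.278), Ces5 -0.34 (0.379) and Sult2b1 -0.14 (0.636). Abcg2 thus differed by more than without the covariate and Sult2b1 by far less. Of the 20 differences 13 were then negative, with a median of -0.11. Those of Ugt2a3, Sult1b1, Ugt2b36, Ugt1a10, Nat2 and Ugt1a2 turned positive while that of Sult1c2 turned negative. Both Ugt2a3 and Sult1c2 were near background. The covariate itself differs between the groups.

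**Figure D5:**
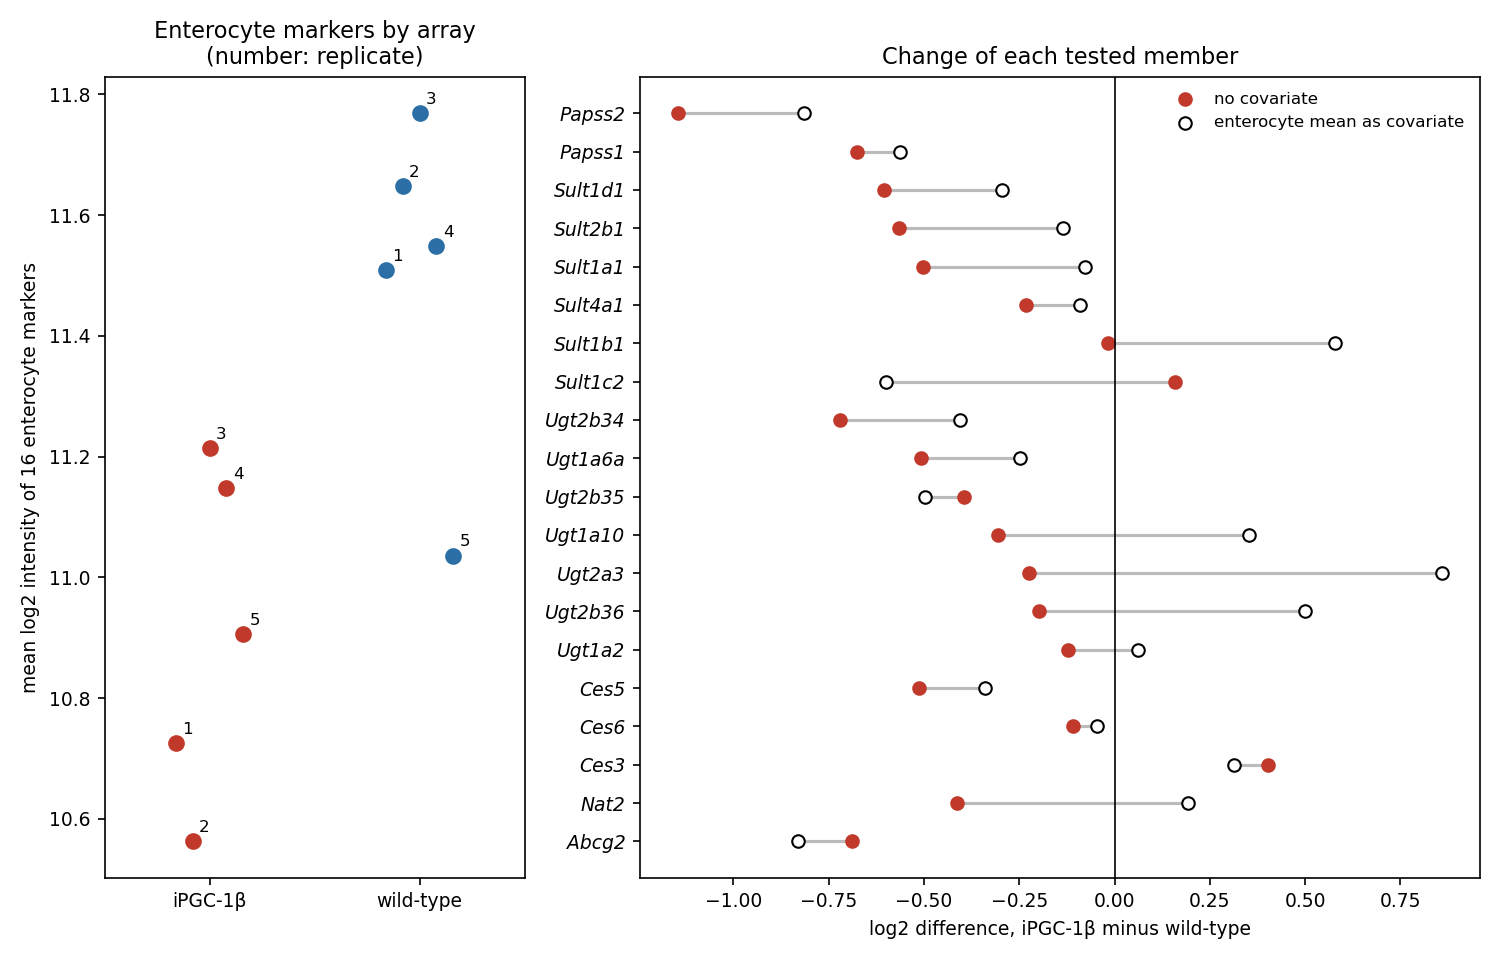
Left, mean log2 intensity of 16 enterocyte markers on each array, numbered by replicate; right, log2 difference (iPGC-1β minus wild-type) of each tested gene without (filled) and with (open) that mean as a covariate. The iPGC-1β arrays lie between 10.56 and 11.21 and the wild-type arrays between 11.04 and 11.77. The points of Papss1 and Abcg2, among others, move little. Those of Ugt1a10, Ugt2b36, Nat2, Sult1b1, Ugt1a2, Ugt2a3 and Sult1c2 cross 0, and of these Ugt2a3 and Sult1c2 were near background.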

How the data were processed

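Per the labels' protocols, Qiazol was used to extract total RNA from ileum, quality was read on a Bio-Rad Experion, and RNA labelled with biotin was put on arrays by Illumina's standard protocol. The submitters' processing notes name GenomeStudio, with no version. For each probe and array the deposited table gives, per the file headers, a linear intensity (average signal) and a detection p-value. Processed intensity values by the authors stand in another deposited table, and the steps behind them are not stated in the sources used here. Symbols are used as the file writes them; 33 of the 37 are current in RefSeq's GRCm38.p6 table, 3 matched through a synonym and 1 (Ces3) has several candidates.

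Intensities were background-corrected by normexp (offset 16, negative controls inferred from detection p), normalized by quantiles and log2-transformed with neqc (limma 3.58.1, R 4.3.3). Probes with a detection p under 0.05 on at least 5 of 10 arrays were kept (12349), and the kept probe with the highest mean stood for each of 9365 genes. Groups came from the genotype label. They were compared with limma (lmFit, eBayes, no covariate), with p-values adjusted by Benjamini-Hochberg over the 9365 genes and called under 0.05; single genes also got a two-sided exact permutation test over 252 relabelings. The fold of Abcb1b sets its iPGC-1β mean against a wild-type background floor. Per wild-type array this floor is the dimmest detected signal, or the probe's own signal if that is higher. The fit was tested on simulated data. Named were all 37 genes, with every array's value for called ones, and up to 4 genes with the smallest unadjusted p of each surrounding or marker list; exceptions are marked. The genes, lists and tests were chosen with earlier results of these data known. Replicate numbers follow the order of samples and pair nothing. No pair of arrays was identical (0 pairs), correlations between arrays ran from 0.9234 to 0.9867, and every sample column was used (0 unused). The sources used here state neither litters, sexes, slides nor any pooling, so each p-value reflects only how these 10 samples vary, and 5 arrays per group limit the precision. The alternatives tried are given in the closing section.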

Additional observations from a re-analysis of the deposited data

Results flagged for a closer look

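Of 40 sets of 5 arrays examined (20 genes in each of 2 groups), 2 held an array far from the other 4 by Dixon's ratio (critical value 0.71); chance flags about 1 in 20 such sets. Sult1d1 read 10.83 on iPGC-1β array 1 with the other 4 iPGC-1β arrays between 9.51 and 9.85 (ratio 0.746). Sult1a1 read 6.90 on wild-type array 5 with the other 4 wild-type arrays between 8.09 and 8.34 (ratio 0.827).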

How the results depend on the processing

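Of the 20 tested genes 0 were called higher under each of 24 alternatives. The number called lower, 6 as reported, was 0 with the enterocyte covariate, and otherwise lay between 4 and 9: 6 without background correction, under median centring, with the strict filter (detection p under 0.01 on all 10 arrays, which left 15 of the genes tested) and with a smooth muscle covariate, 5 with loess, without a filter and with the mean of kept probes, 7 with the authors' processed values, with a variance trend and at an adjusted p under 0.10, 4 at a minimum of 1.5-fold and 9 with array weights. With any 1 array left out it lay between 4 and 8. Without iPGC-1β array 3 and wild-type array 5 together, chosen after seeing the data, it was 9. The shares of all tested genes moved too. Between 3.03% (without a filter) and 11.8% (with array weights) were lower, and between 4.71% (without a filter) and 13.2% (strict filter) higher. At a minimum of 1.5-fold 4.95% were lower, with the strict filter 10.6%, and with any 1 array left out between 4.57% and 8.6%. The counts were not tested against these shares. The 6 with the strict filter were not the same genes. Papss2 did not pass that filter, with a detection p of 0.016 on iPGC-1β array 1, and Ugt1a6a was called lower there. Abcg2, Papss1 and Ugt2b34 were called in 21 of 22 alternatives and Papss2 in 20 of 21, each lost only with the enterocyte covariate. Sult2b1 was called in 18 of 22. The covariate is itself lower on iPGC-1β arrays, and the cause of the lost calls was not tested.

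Of 428 values of single genes of the 37 under an alternative, 379 kept direction and call, 18 lost the call, 12 gained it and 19 changed sign. Sult1b1 read 0.013 without background correction, 0.013 with the authors' processed values, 0.084 with array weights, 0.58 with the enterocyte covariate and between -0.23 and 0.17 with any 1 array left out. Under the enterocyte covariate Nat2 read 0.19, Sult1c2 -0.60, Ugt1a10 0.35, Ugt1a2 0.060, Ugt2a3 0.86, Ugt2b36 0.50 and, outside the 37, Inmt 0.095. With any 1 array left out Sult1c2 lay between -0.11 and 0.40, Ces6 between -0.31 and 0.074, Ugt2b36 between -0.39 and 0.052, Ugt1a2 between -0.30 and 0.050 and Es1 between -0.17 and 0.31. Es1 read -0.037 with the mean of kept probes and -0.00477 with array weights, and Es22 -0.092 without the 2 arrays. The cause was not tested. Papss2 and Abcg2, at -1.14 and -0.69 as reported, read -0.55 and -0.39 without background correction. No paired analysis was possible because the replicate numbers only follow the order of samples and the labels tie no array of one group to an array of the other.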

Other observations

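Some genes carry an old symbol in the file and a current one that would meet the rule. There were 10 such genes, of which 5 were tested and 0 were called by limma in either direction, with 1 lower at an unadjusted p under 0.05. AU018778, now the carboxylesterase gene Ces1f, came closest: its log2 intensities were 9.39, 10.32, 9.68, 9.67 and 9.51 on iPGC-1β arrays, against 10.87, 10.16, 9.80, 10.34 and 10.93 on wild-type arrays. Its log2 difference was -0.70 ± 0.23 (SE; limma adjusted p = 0.0563, exact permutation p = 0.0397), and it was called lower in 9 of 22 alternatives. With the enterocyte covariate its difference was -1.29 (limma adjusted p = 0.0168), while 0 of the 20 tested genes of the rule were called. The highest iPGC-1β array, replicate 2, lay above wild-type arrays 2 and 3. 2210023G05Rik, now Ces2g, differed by -0.47 (adjusted p = 0.232). The other 3 were positive: Es22, now Ces1e, at 0.28, 382044, now Ces1b, at 0.22 and Es1, now Ces1c, at 0.12. Together with Ces5, Ces6 and Ces3, the tested carboxylesterases therefore pointed both ways, with Ces5 the only one called.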
